A study of Mus musculus with 3 samples.

Results

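Cell cycle and proliferation genes were examined in the midbrain of newborn mice. The set comprised 47 genes chosen by symbol, with 1 row per symbol in the deposited tables, and all 47 were found among the 49585 genes listed. They were described in 3 classes, which were 25 genes of G2 phase and mitosis (G2/M), 16 genes of S phase and its onset, and 6 cyclin and kinase genes of G1 phase. The RNA came from brains of C57BL/6 mice at postnatal day 3, with the midbrain as the labelled source, in 2 libraries of the genotype labelled FGR and 1 wild-type (WT) library. The sources used here do not spell out FGR or name an allele, transgene or treatment behind it, so the group is called by its label. The question addressed was whether transcripts of dividing cells differed between FGR and WT midbrain, and how far the FGR libraries differed from each other.

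Cells enter the division cycle in G1 phase, when D-type cyclins and their kinases phosphorylate the retinoblastoma protein and release E2F transcription factors, which switch on the genes of DNA replication. A separate programme, directed by the DREAM and B-MYB complexes and by FOXM1, switches on the genes of G2 phase and mitosis later in the cycle, and many of their promoters hold CHR elements and CCAAT boxes. In the newborn brain most neurons of the midbrain have left the cycle, and the cells that still divide are largely glial precursors, vascular and meningeal cells and microglia.

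The deposited counts summed to 58444481 in FGR replicate 1, 46240262 in FGR replicate 2 and 52874311 in WT. The 47 genes took 29705, 29700 and 35474 of these counts, which was 0.0508%, 0.0642% and 0.0671%. All 47 were among the 25561 genes that were tested. Levels are given as CPM, counts relative to library size, scaled by TMM, which corrects for differences in RNA composition. Midbrain genes were present in every library at unequal levels. The regulators En1, En2 and Otx2 were higher in FGR, with 40.1 and 37.4 CPM of En2 in FGR and 20.9 CPM in WT. The regulator Pax7 did not follow them, with 29.2 and 22.6 CPM in FGR on either side of 23.1 CPM in WT. The dopamine neuron genes Slc6a3 and Th were lower in FGR, with 17.8 and 22.3 CPM of Slc6a3 in FGR and 47.5 CPM in WT. The part of these regional differences in the levels of the cell cycle genes was not tested. With edgeR's quasi-likelihood test and Benjamini-Hochberg adjustment over all tested genes, at a threshold of 0.05, 663 genes were lower and 424 were higher in FGR, so that 39% of calls were higher, or 24.4% under scaling by library totals. All spread in the fit, with its 1 residual degree of freedom, was that between both FGR libraries, and the WT library, having no replicate, was taken to vary as they did. Each gene's spread is drawn by edgeR toward that of other tested genes, so its p-value does not rest on its own FGR values alone. The labels do not state whether each FGR library stands for another animal or litter. Sex-linked transcripts, given below, differed between the FGR libraries, so these did not come from the same animal. Whether they came from separate litters is not known, so the p-values cover the spread of these libraries and no more.

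Most transcripts of the G2/M genes were at lower levels in FGR midbrain than in WT. Of the 25 genes, 23 lay below WT in both FGR libraries, against 38.2% of all tested genes. Summed over the class, the level was 130 CPM in FGR replicate 1, 188 CPM in FGR replicate 2 and 218 CPM in WT, or 59.5% and 86.2% of WT in the FGR libraries. The median log2 fold change was -0.59, against 0.01 over all tested genes. It was -0.31 without FGR replicate 1 and -0.87 without FGR replicate 2. The order of the libraries was the same for 23 genes, with FGR replicate 1 lowest and WT highest, an order that 19.5% of all tested genes had.

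**Figure D1:**
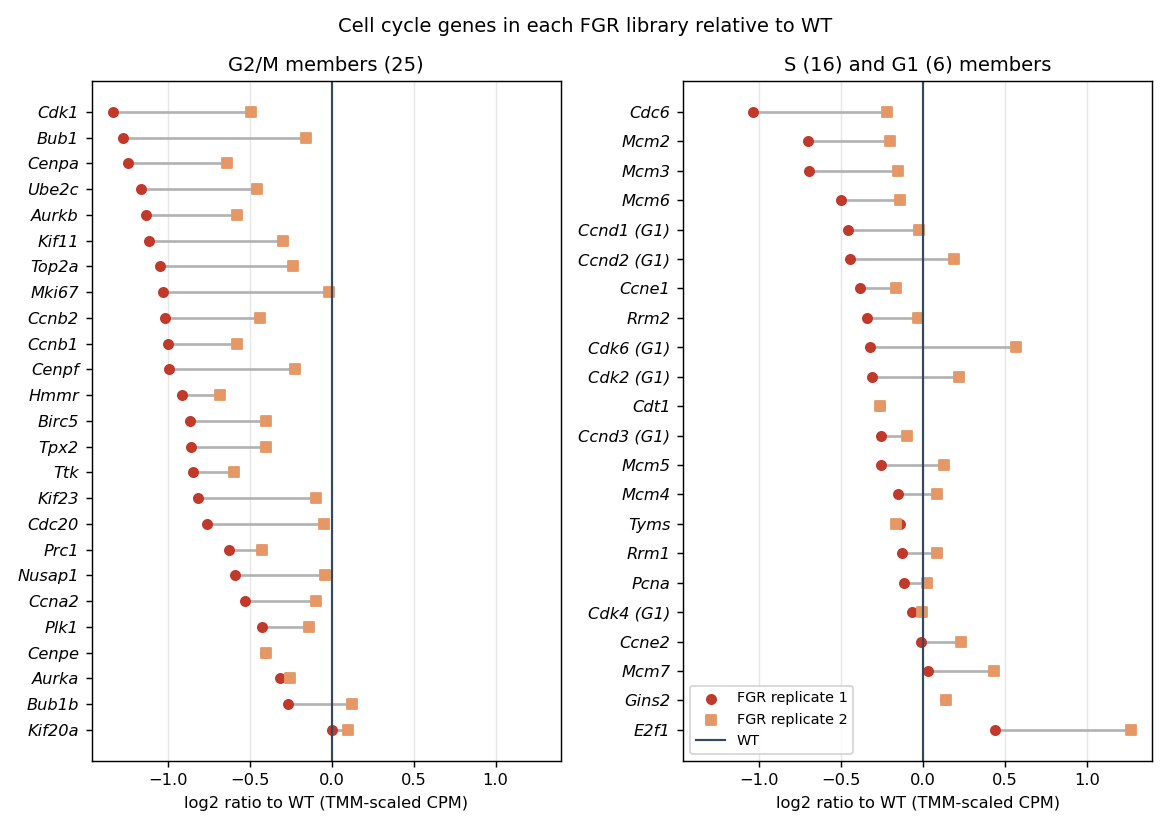
Log2 ratio of each FGR library to WT (TMM-scaled CPM) for the 25 G2/M genes (left) and the 16 S and 6 G1 genes (right), with circles for FGR replicate 1, squares for FGR replicate 2 and a vertical line at the WT level. In the left panel 23 genes have both points below WT and the circle lies to the left of the square in all 25. In the right panel 11 of 22 genes have both points below WT. Of all tested genes, 38.2% lie below WT in both FGR libraries.

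After adjustment over all genes 3 of the 25 fell in FGR, which were Ccnb1, Cenpa and Prc1, against 2.59% of all tested genes called lower. Over the 47 genes these were also the only calls, so 3 fell and 0 rose, against 4.25% of all tested genes called in either direction and 1.66% called higher. Ccnb1 encodes cyclin B1, the partner that activates CDK1 for entry into mitosis. It had 3.69 and 4.94 CPM in the FGR libraries and 7.38 CPM in WT. Both FGR libraries were low and lay closer to each other than to WT. The mean was 4.32 ± 0.887 CPM in FGR (SD, n = 2) and the log2 fold change was -0.78 ± 0.18 (SE, edgeR adjusted p = 0.0281), a level 1.72-fold lower. Cenpa encodes the histone H3 variant that marks centromeres. It had 2.07 and 3.15 CPM in FGR and 4.90 CPM in WT, again with both FGR libraries below WT. Its log2 fold change was -0.92 ± 0.23 (edgeR adjusted p = 0.0352), the lowest of the 47 genes. Prc1 encodes the protein that bundles antiparallel microtubules at the spindle midzone for cytokinesis. It had 13.0 and 15.0 CPM in FGR and 20.1 CPM in WT. Its FGR libraries were the closest together of the 3 genes, and its log2 fold change was -0.52 ± 0.13 (edgeR adjusted p = 0.0384). Prc1 shares 11.1% of its exon bases with Rccd1 on the opposite strand, and whether counting used strand is not given in the sources used here. Ccnb1 and Cenpa share none.

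These calls depended on the test. DESeq2 called 0 of the 25 genes, with 5 lower at an unadjusted p under 0.05, and adjusted p-values of 0.273 for Ccnb1, 0.338 for Cenpa and 0.158 for Prc1. A filter at a mean of 1 CPM also left 0 calls, with 11 lower at an unadjusted p under 0.05. Over 8 alternatives the adjusted p ranged from 0.000174 to 0.273 for Ccnb1, from 7.56e-05 to 0.338 for Cenpa and from 0.00167 to 0.158 for Prc1, and each of the 3 was called in 6 of the 8. At an unadjusted p under 0.05, edgeR found 15 of the 25 lower, against 9.92% of all tested genes.

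The promoter sequences of the called genes are shown because G2/M genes are known to be controlled through such elements in their promoters. Cdk1 is added as a G2/M promoter that holds every element searched, and Mcm6 as an S phase promoter. Each sequence is the 250 bases before the first listed transcription start, 5′ to 3′ on the gene's strand, from RefSeq (build GRCm38.p6). The windows lie at chr13:100786487-100786736 (minus strand) for Ccnb1, chr5:30666636-30666885 (plus) for Cenpa, chr7:80294201-80294450 (plus) for Prc1, chr10:69352913-69353162 (minus) for Cdk1 and chr1:128359706-128359955 (minus) for Mcm6. Capitals mark the CCAAT box, the CHR element, which is TTTGAA or its variant TTCGAA, and E2F motifs, which are TTCCCGC and its variants spelled TTCGCGC, or spelled TTGCCGC, or spelled TTGGCGC. All were searched on both strands.
Ccnb1: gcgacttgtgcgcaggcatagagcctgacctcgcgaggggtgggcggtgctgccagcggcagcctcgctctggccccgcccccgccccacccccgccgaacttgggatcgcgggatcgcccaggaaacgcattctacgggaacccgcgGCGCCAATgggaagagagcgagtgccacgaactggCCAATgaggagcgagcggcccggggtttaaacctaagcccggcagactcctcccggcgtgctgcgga
Cenpa: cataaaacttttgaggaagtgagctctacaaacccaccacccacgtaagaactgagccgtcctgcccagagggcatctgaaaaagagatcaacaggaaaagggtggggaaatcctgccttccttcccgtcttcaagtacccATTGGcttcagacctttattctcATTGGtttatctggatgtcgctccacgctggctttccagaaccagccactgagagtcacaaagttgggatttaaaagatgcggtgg
Prc1: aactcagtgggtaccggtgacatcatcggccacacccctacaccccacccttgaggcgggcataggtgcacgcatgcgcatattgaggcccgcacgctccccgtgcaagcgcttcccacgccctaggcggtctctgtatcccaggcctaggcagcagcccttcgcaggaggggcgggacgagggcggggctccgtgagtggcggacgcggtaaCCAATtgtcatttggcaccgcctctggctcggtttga
Cdk1: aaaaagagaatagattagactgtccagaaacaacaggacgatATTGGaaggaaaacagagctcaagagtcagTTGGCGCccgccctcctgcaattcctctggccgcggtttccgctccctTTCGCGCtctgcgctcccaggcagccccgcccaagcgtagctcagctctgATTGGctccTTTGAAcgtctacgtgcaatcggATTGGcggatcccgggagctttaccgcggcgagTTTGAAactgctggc
Mcm6: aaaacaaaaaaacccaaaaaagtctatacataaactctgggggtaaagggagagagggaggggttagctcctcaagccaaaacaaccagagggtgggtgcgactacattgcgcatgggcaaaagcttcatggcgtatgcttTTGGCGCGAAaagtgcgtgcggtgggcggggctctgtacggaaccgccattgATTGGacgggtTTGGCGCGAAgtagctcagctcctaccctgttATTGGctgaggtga

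Ccnb1 and Cenpa held 2 CCAAT boxes each, which began 99 and 67 bases before the start in Ccnb1 and 109 and 86 bases before it in Cenpa. Prc1 held 1, at 37 bases. In Ccnb1 the E2F letters GCGCCAA overlapped the more distant CCAAT box. CHR letters began 5 bases before the start in Prc1, running past the printed window, and 17 bases after it in Cenpa. Cdk1 held 2 CHR elements, 3 CCAAT boxes and 2 E2F motifs, and Mcm6 held 2 CCAAT boxes and, at 2 places, the E2F letters TTGGCGC overlapped by an E2F match on the other strand (GCGCGAA as printed). These matches are descriptions of letters and were not tested as binding sites.

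Promoters of 300 bases, from 250 before to 50 after the start, were found for 38 of the 47 genes. Ccna2, Aurkb, Kif20a, Tpx2, Mcm4, Ccne2, Gins2, Ccnd1 and Ccnd2 had no entry. A CHR element was present in 17 of 21 G2/M promoters (81%), in 2 of 13 S promoters (15.4%) and in 0 of 4 G1 promoters, against 19.4% of all 27025 promoters. A CCAAT box was present in 19 of the 21 G2/M promoters (90.5%), 8 of the 13 S promoters (61.5%) and 1 of the 4 G1 promoters, against 37.9% of all promoters. All 17 G2/M promoters with a CHR element also held a CCAAT box, a combination found in 7.7% of all promoters. The E2F letters had the opposite distribution, with 4 G2/M promoters (19%) and 8 S promoters (61.5%), against 9.69% of all promoters. The 3 called genes shared the CCAAT box, and 2 of them the CHR element, with most other G2/M genes, among them genes whose levels did not pass the test.

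Among the other cyclin and kinase genes of mitosis, Cdk1, the kinase that drives mitotic entry, had 2.83 and 5.08 CPM in FGR and 7.13 CPM in WT. Its FGR libraries were far apart although both lay below WT, and the log2 fold change of -0.87 ± 0.24 did not pass (edgeR adjusted p = 0.062). It passed in 5 of the 8 alternatives, with adjusted p from 2.52e-05 to 0.361. Ccnb2, another B-type cyclin, had 1.26 and 1.88 CPM in FGR and 2.55 CPM in WT. Ccna2, which encodes the cyclin A2 that acts in S phase and G2, had 14.4 and 19.5 CPM in FGR and 20.9 CPM in WT, so that FGR replicate 2 was near WT. Ccna2 shares 12.5% of its exon bases with Exosc9 on the opposite strand. The 4 genes of this role together reached 58.6% and 82.9% of WT in the FGR libraries.

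The mitotic kinases and the survivin subunit Birc5 together reached 63.6% and 78.6% of WT in the FGR libraries. Aurkb, the kinase of the chromosomal passenger complex, had 1.55 and 2.28 CPM in FGR and 3.40 CPM in WT (log2 fold change -0.84 ± 0.24, edgeR adjusted p = 0.0689). Birc5, which anchors that complex at centromeres, had 1.79 and 2.47 CPM in FGR and 3.27 CPM in WT. Both genes lay below WT in both FGR libraries, and lowest in FGR replicate 1. Aurka and Plk1, kinases of spindle poles and mitotic progression, differed less, with log2 fold changes of -0.28 ± 0.19 and -0.28 ± 0.24 (edgeR adjusted p = 0.478 and 0.588).

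The genes of the centromere and kinetochore gave 55.7% and 77.8% of WT. Beside Cenpa they were Cenpf, a kinetochore and nuclear matrix protein with 5.21 and 8.86 CPM in FGR and 10.4 CPM in WT, and Cenpe, a kinetochore motor. Cenpe had 4.72 and 4.75 CPM in FGR and 6.26 CPM in WT. Its FGR libraries were all but equal and both below WT, with a log2 fold change of -0.40 ± 0.16 that did not pass (edgeR adjusted p = 0.193).

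The spindle and midzone genes reached 68.3% and 86.5% of WT, and Kif20a stood apart from the rest. Kif20a, a kinesin of the midzone, had 17.3 and 18.5 CPM in FGR and 17.2 CPM in WT, with FGR replicate 1 at the WT level and FGR replicate 2 just above it. Its log2 fold change of 0.05 ± 0.12 (edgeR adjusted p = 0.874) was the only positive one in the class. Per length it was the most abundant gene of the class by the mean over the 3 libraries, at 4.51 and 4.81 RPKM in FGR and 4.61 RPKM in WT, although in WT Ccna2 was higher at 5.20 RPKM. It shares 29.3% of its exon bases with Cdc23 on the opposite strand, and Cdc23 had 12725 counts over the 3 libraries against 2771 for Kif20a, so reads of the pair may not be separated. The part of this overlap in the level of Kif20a was not tested.

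Kif11, the motor that separates spindle poles, had 5.45 and 9.58 CPM in FGR and 11.8 CPM in WT. Tpx2, an activator of Aurora A on the spindle, had 4.53 and 6.21 CPM in FGR and 8.21 CPM in WT. Hmmr, a spindle assembly factor, had 1.64 and 1.93 CPM in FGR and 3.08 CPM in WT. In all 3 genes both FGR libraries lay below WT, and their edgeR adjusted p-values of 0.129, 0.0729 and 0.064 did not pass. Kif23, a midzone kinesin, and Nusap1, a microtubule-stabilizing protein, had FGR replicate 2 close to WT, and their log2 fold changes were -0.43 ± 0.25 and -0.30 ± 0.19.

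The proliferation marker Mki67, which encodes the Ki-67 coat of mitotic chromosomes, and Top2a, the topoisomerase that untangles sister chromatids, were the class members with the highest counts in WT. Mki67 had 11.6 and 23.4 CPM in FGR and 23.7 CPM in WT. FGR replicate 2 was at the WT level and FGR replicate 1 was far below both. The mean of 17.5 ± 8.35 CPM in FGR (SD, n = 2) gave a log2 fold change of -0.44 ± 0.25 (edgeR adjusted p = 0.389). Top2a had 15.4 and 27.1 CPM in FGR and 31.9 CPM in WT, with a log2 fold change of -0.59 ± 0.21 (edgeR adjusted p = 0.137). Together the pair reached 48.6% and 90.8% of WT in the FGR libraries, the widest difference between the FGR libraries of the 6 G2/M roles.

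The genes of the spindle checkpoint and the anaphase-promoting complex reached 61.9% and 93.6% of WT. Bub1, a checkpoint kinase, had 1.36 and 2.95 CPM in FGR and 3.29 CPM in WT, with FGR replicate 2 near WT and FGR replicate 1 far below it (log2 fold change -0.63 ± 0.32, edgeR adjusted p = 0.316). Ttk, the kinase also called MPS1, had 1.10 and 1.31 CPM in FGR and 1.99 CPM in WT. Ube2c and Cdc20, the ubiquitin-conjugating enzyme and the activator of the complex, had log2 fold changes of -0.78 ± 0.32 and -0.37 ± 0.23. Ube2c shares 22.8% of its exon bases with Tnnc2 on the opposite strand. Bub1b, which encodes the checkpoint protein BUBR1, was the gene of the class whose FGR libraries fell on either side of WT, at 4.93 and 6.45 CPM against 5.93 CPM.

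**Figure D2:**
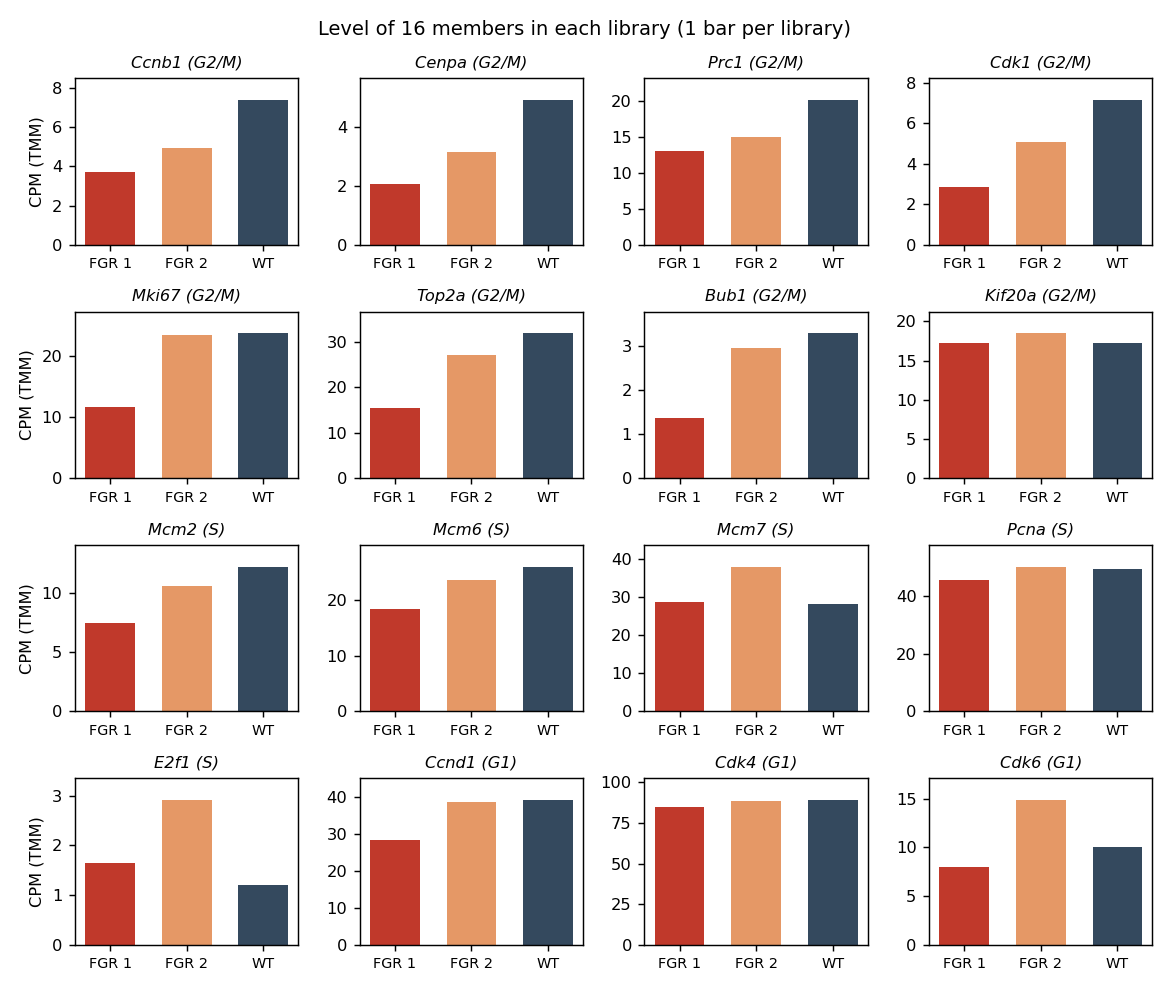
TMM-scaled CPM of 16 cell cycle genes, with 1 bar per library in the order FGR replicate 1, FGR replicate 2 and WT and a separate axis from 0 for each gene. Ccnb1, Cenpa and Prc1 are below WT in both FGR libraries, Mki67 and Bub1 have FGR replicate 2 near WT, Kif20a is nearly level, and E2f1 is highest in FGR replicate 2.

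**Figure D3:**
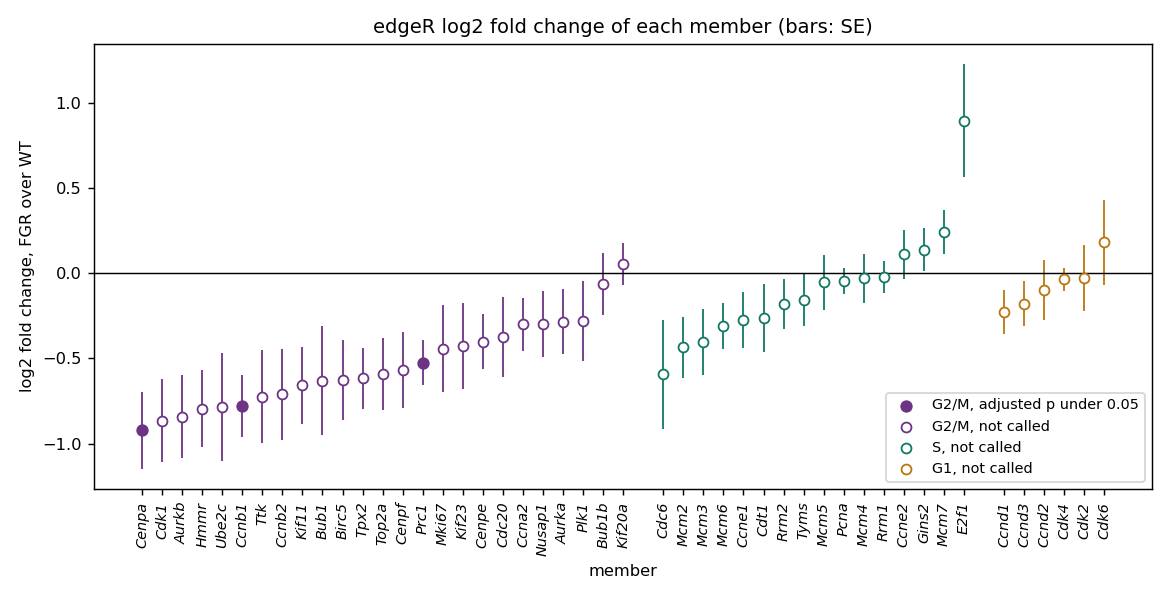
Log2 fold change of FGR over WT from edgeR for each of the 47 genes by class, with bars for the standard error and filled points for an adjusted p under 0.05. The 3 filled points are Cenpa, Ccnb1 and Prc1 in the G2/M class, 24 of the 25 G2/M points lie below 0, and E2f1 in the S class lies highest at 0.90.

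The FGR libraries also differed from each other in these genes. All 25 G2/M genes were lower in FGR replicate 1 than in FGR replicate 2, against 50.8% of all tested genes. The median log2 ratio of FGR replicate 1 to FGR replicate 2 was -0.55, and it was -0.00 over all tested genes. The 95% counting interval of this ratio, an exact binomial interval that covers counting error only, lay below equality for 19 of the 25, against 13.8% of all tested genes. The 6 others were Plk1, Ttk, Hmmr, Kif20a, Aurka and Cenpe. The widest gap was in Bub1, at -1.12 (interval -1.54 to -0.71), a level 2.17-fold lower in FGR replicate 1. Mki67 followed at -1.01 (interval -1.15 to -0.87) and Cdk1 at -0.84 (interval -1.14 to -0.55). At the other end Cenpe had a gap of -0.01 (interval -0.27 to 0.26).

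Counted by size, FGR replicate 1 lay under WT by at least 1.5-fold in 19 of the 25 genes, against 5.27% of the 18667 genes with a mean of at least 1 CPM. FGR replicate 2 did so in 3, which were Cenpa, Hmmr and Ttk, against 3.57% of those genes. FGR replicate 1 lay under FGR replicate 2 by at least 1.5-fold in 10 of the 25, against 2.20%. With 2 FGR libraries, the gap between them was the only replicate spread, and edgeR draws each gene's spread toward that of other tested genes. Cenpe, with a gap of -0.01, thus had a standard error of 0.16. Bub1 and Mki67, with the widest gaps, had standard errors of 0.32 and 0.25 on the log2 scale, against 0.13 for Prc1.

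**Figure D4:**
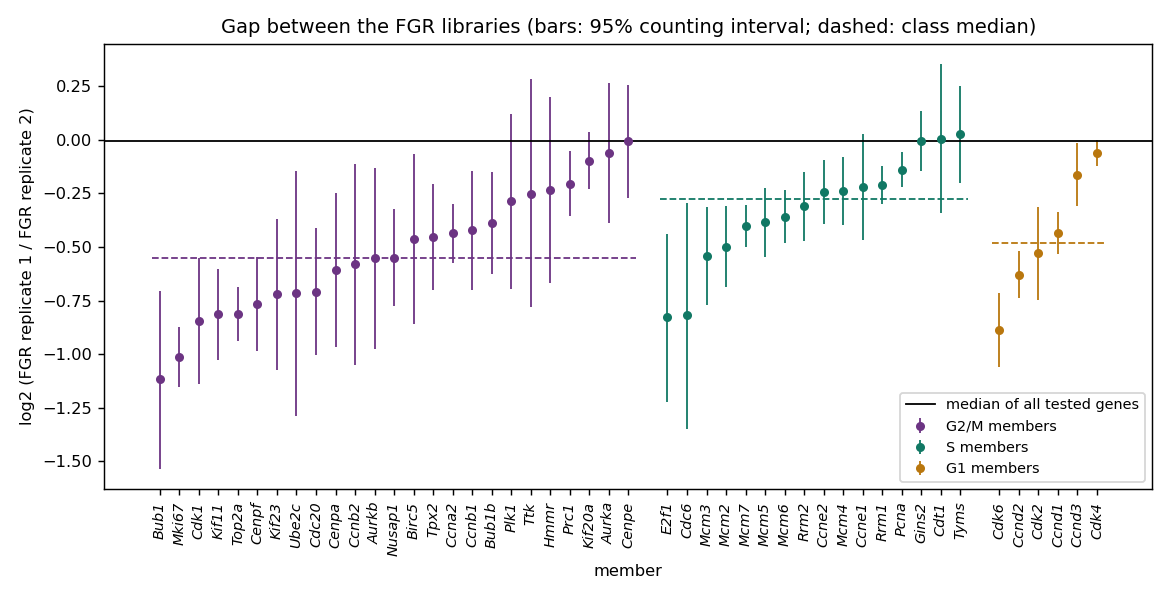
Log2 ratio of FGR replicate 1 to FGR replicate 2 for each of the 47 genes, with bars for the 95% counting interval, dashed lines at the class medians of -0.55 (G2/M), -0.28 (S) and -0.48 (G1) and a solid line at the median of all tested genes. Points lie below the solid line in all G2/M genes, and the widest gaps are those of Bub1 and Mki67.

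The S phase genes lay on both sides of WT. Their summed level was 221 CPM in FGR replicate 1, 264 CPM in FGR replicate 2 and 251 CPM in WT, or 87.9% and 105% of WT. Of the 16 genes, 8 lay below WT in both FGR libraries, 3 lay above it in both and 5 lay on either side. The median log2 fold change was -0.10, and it was -0.01 without FGR replicate 1 and -0.20 without FGR replicate 2. With edgeR 0 of the 16 passed after adjustment, and 0 passed with DESeq2 or limma-voom. At an unadjusted p under 0.05, edgeR had 2 lower and 1 higher, against 18.3% of all tested genes in either direction. Without a filter on low counts edgeR called 1 lower (Mcm2, adjusted p = 0.0463) and 1 higher (E2f1, adjusted p = 0.0189). That setting called 2057 of all 35837 genes tested in it.

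Subunits of the replicative helicase differed among themselves. Mcm2 had 7.48 and 10.6 CPM in FGR and 12.2 CPM in WT, with a log2 fold change of -0.44 ± 0.18 (edgeR adjusted p = 0.203). Mcm6 had 18.4 and 23.6 CPM in FGR and 26.05 CPM in WT (log2 fold change -0.31 ± 0.14, edgeR adjusted p = 0.238). In both, as in Mcm3, all FGR values lay below WT. Mcm7 had 28.8 and 38.1 CPM in FGR and 28.3 CPM in WT, so that FGR replicate 1 was at the WT level and FGR replicate 2 was above it. Its log2 fold change was 0.24 ± 0.13 (edgeR adjusted p = 0.357). Mcm4 and Mcm5 had FGR replicate 1 below and FGR replicate 2 above WT. Gins2, a subunit of the GINS complex that joins the helicase, had 16.2 and 16.3 CPM in FGR and 14.8 CPM in WT, and shares 67.3% of its exon bases with Gse1 on the opposite strand, so its reads may include those of Gse1.

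The licensing factors Cdc6 and Cdt1, which load the helicase on DNA, summed to 70.6% and 84.1% of WT. Cdc6 had 0.931 and 1.64 CPM in FGR and 1.91 CPM in WT, from 54 and 75 counts in FGR and 103 counts in WT. FGR replicate 1 was far below the other libraries, and the log2 fold change of -0.59 ± 0.32 did not pass (edgeR adjusted p = 0.352). Cdt1 had 2.74 and 2.73 CPM in FGR and 3.29 CPM in WT.

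Genes of DNA synthesis summed to 90.1% and 102% of WT in the FGR libraries. Pcna, the sliding clamp of DNA polymerase, had 45.3 and 49.9 CPM in FGR and 49.1 CPM in WT. It was the most abundant S phase gene per length, at 18.7 and 20.6 RPKM in FGR and 20.8 RPKM in WT, and its log2 fold change was -0.05 ± 0.08 (edgeR adjusted p = 0.818), and 0.01 without FGR replicate 1. The pseudogene copy Pcna-ps2 had 135 and 122 counts in FGR and 140 counts in WT, few beside the 7552 counts of Pcna over the 3 libraries. Rrm1 and Rrm2, subunits of ribonucleotide reductase, had log2 fold changes of -0.02 ± 0.09 and -0.18 ± 0.15, and Tyms, thymidylate synthase, had -0.15 ± 0.15.

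E2f1, the transcription factor that activates many genes of S phase, was 1 of the 3 S genes above WT in both FGR libraries, with Mcm7 and Gins2. It had 1.64 and 2.91 CPM in FGR and 1.21 CPM in WT, from 95 and 133 counts in FGR and 65 counts in WT. FGR replicate 2 was far above FGR replicate 1. Its log2 fold change of 0.90 ± 0.33 was the highest of the 47 genes and did not pass (edgeR quasi-likelihood adjusted p = 0.155). Ccne1 and Ccne2, the E-type cyclins of the G1 to S transition, had log2 fold changes of -0.27 ± 0.17 and 0.11 ± 0.14. Ccne2 shares 17.4% of its exon bases with Ints8 on the opposite strand.

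The gap between the FGR libraries was also present in the S class. FGR replicate 1 was below FGR replicate 2 in 14 of the 16 genes, against 50.8% of all tested genes, with a median log2 ratio of -0.28. The counting interval lay below equality in 12, against 13.8% of all tested genes. The exceptions to the order were Tyms and Cdt1, whose intervals spanned equality, as did those of Ccne1 and Gins2. The widest gaps were those of E2f1 at -0.83 (interval -1.22 to -0.44) and Cdc6 at -0.82 (interval -1.35 to -0.29), the only S genes with a gap of at least 1.5-fold. Pcna had a gap of -0.14 (interval -0.22 to -0.06).

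The balance of the classes within a library is free of scaling between libraries. Summed counts of the G2/M genes per summed count of the S genes were 0.588 (95% exact interval 0.571 to 0.605) in FGR replicate 1, 0.712 (0.692 to 0.732) in FGR replicate 2 and 0.868 (0.847 to 0.890) in WT. The 3 intervals did not overlap. They cover counting error only, and with 1 WT library no spread of this ratio between WT animals was measured. How often other pairs of gene sums separate in this way was not tested. Sums of the further G2/M and S phase genes, described below, did not show this shift. As percent of WT, their G2/M sum was 98.5% in FGR replicate 1 and 109% in FGR replicate 2. Their S sum was 98.7% and 107%. Ncapd2 and Hjurp together held a large part of the further G2/M sum. Median log2 fold changes, at -0.26 and 0.01, did differ between these lists.

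The G1 genes showed a gap between the FGR libraries. Their summed level was 162 CPM in FGR replicate 1, 198 CPM in FGR replicate 2 and 190 CPM in WT, or 85.1% and 104% of WT. With edgeR 0 of the 6 passed after adjustment and 0 had an unadjusted p under 0.05, and 0 passed with DESeq2 or limma-voom. The median log2 fold change was -0.07, and it was 0.08 without FGR replicate 1 and -0.32 without FGR replicate 2. All 6 were lower in FGR replicate 1 than in FGR replicate 2, against 50.8% of all tested genes, with a median log2 ratio of -0.48. Counting intervals lay below equality in all 6, against 13.8% of all tested genes.

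The D-type cyclins bind CDK4 and CDK6 in response to growth signals. Ccnd1 had 28.4 and 38.4 CPM in FGR and 39.1 CPM in WT, with FGR replicate 2 at the WT level, and a log2 fold change of -0.23 ± 0.13 (edgeR adjusted p = 0.39). It shares 23.4% of its exon bases with LTO1 on the opposite strand. Ccnd2 had 21.0 and 32.4 CPM in FGR and 28.5 CPM in WT, with the FGR libraries on either side of it. Ccnd3 had 13.7 and 15.4 CPM in FGR and 16.5 CPM in WT, both below WT, with a log2 fold change of -0.18 ± 0.13 (edgeR adjusted p = 0.531).

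Of the G1 kinases, Cdk4 was the most abundant per length of all 47 genes, at 25.95 and 26.96 RPKM in FGR and 27.9 RPKM in WT. At 85.0 and 88.6 CPM in FGR and 89.0 CPM in WT, its 3 libraries were nearly level, and its log2 fold change was -0.04 ± 0.07 (edgeR adjusted p = 0.83). Cdk4 shares 19.7% of its exon bases with Tspan31 on the opposite strand. Cdk6 had 8.03 and 14.9 CPM in FGR and 10.1 CPM in WT, so that WT lay between the FGR libraries. Its gap of -0.89 (interval -1.06 to -0.71) was the widest of the class. Its log2 fold change was 0.18 ± 0.25 (edgeR adjusted p = 0.764), and -0.32 without FGR replicate 2. Cdk2, the partner of the E-type cyclins, had 5.74 and 8.29 CPM in FGR and 7.13 CPM in WT, in the same order as Cdk6.

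Other genes of the same phases were compared with the 47. Like all lists here, theirs were chosen with earlier results of these data known, so they are no independent check. Of 56 further G2/M genes in the tables, 35 lay below WT in both FGR libraries and 6 above it in both, against 38.2% and 38.5% of all tested genes. In 52 FGR replicate 1 was lower than FGR replicate 2, against 50.8%. Their median log2 fold change was -0.26 and their median gap was -0.46. Their summed level was 98.5% and 109% of WT, and Ncapd2 and Hjurp together held a large part of that sum. Ncapd2, a condensin subunit, had 286.3 and 311.1 CPM in FGR and 241.8 CPM in WT (edgeR adjusted p = 0.0729). Hjurp had 166 and 163 CPM in FGR and 148 CPM in WT (edgeR adjusted p = 0.292). At an unadjusted p under 0.05, edgeR had 19 of the 56 in either direction, against 18.3% of all tested genes. After adjustment only Cdca3, which acts in mitotic entry through the degradation of WEE1, passed among the 56, against 4.25% of all tested genes called. Cdca3 had 2.93 and 4.33 CPM in FGR and 6.34 CPM in WT (log2 fold change -0.81 ± 0.21, edgeR adjusted p = 0.0419). It was not called with DESeq2 (adjusted p = 0.335) or with edgeR after a filter at a mean of 1 CPM (adjusted p = 0.126). Of 38 further S phase genes 0 passed with edgeR, with 4 at an unadjusted p under 0.05, against 18.3% of all tested genes at that level. Their median log2 fold change was 0.01 and their median gap was -0.18. The smallest p among them was that of Tk1, thymidine kinase, at 3.72 and 5.14 CPM in FGR and 6.50 CPM in WT (edgeR adjusted p = 0.124).

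Among 20 tested genes that restrain the cycle 1 was called, against 4.25% of all tested genes called in either direction. This was Btg1, an antiproliferative gene of resting cells, which rose. It had 46.998 and 48.676 CPM in FGR and 39.1 CPM in WT (log2 fold change 0.29 ± 0.07, edgeR adjusted p = 0.0429). It was not called in 4 of the 8 alternatives, with adjusted p of 0.0638 to 0.349 in those. The median log2 fold change of the 20 genes was 0.02, with 10 below 0 and 10 above it. Cdkn2a had 0 counts in every library and was not tested. Of 8 genes of the E2F family, E2f1 included, 0 passed with edgeR. At an unadjusted p under 0.05 there were 2, against 18.3% of all tested genes. The smallest p was that of Tfdp2, which encodes a dimerization partner of the E2F proteins, at 28.8 and 31.5 CPM in FGR and 24.8 CPM in WT (edgeR adjusted p = 0.148).

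Markers of several cell types that divide in the newborn brain also lay below WT. All marker lists were chosen with earlier results of these data known. In bulk RNA, fewer cells of a type and less RNA per cell cannot be told apart. The 6 meningeal fibroblast markers were Col1a1, Col1a2, Col3a1, Dcn, Lum and Foxc1. They had the same order as the G2/M genes, lowest in FGR replicate 1 and highest in WT, in 6 of 6, against 19.5% of all tested genes. Their summed level was 41.9% and 64.6% of WT in the FGR libraries, and 4 of the 6 fell, against 2.59% of all tested genes called lower. Col3a1, a fibrillar collagen, had 84.9 and 124.6 CPM in FGR and 210.4 CPM in WT (edgeR adjusted p = 0.00114). With DESeq2, with a robust fit and with a filter at a mean of 1 CPM, 0 of these 4 calls were kept.

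Markers of oligodendrocyte precursors were at 75.2% and 79.7% of WT, those of astrocytes at 73.2% and 86.7% and those of microglia at 65.8% and 71.4%, with 3, 4 and 4 of 6 called lower, against the same 2.59%. DESeq2 kept 3 of the 3, 2 of the 4 and 1 of the 4 calls, and the filter at a mean of 1 CPM kept 2, 2 and 1. Endothelial markers were at 77.6% and 77.5% of WT with 3 of 6 called lower, and mural cell markers at 80.2% and 83.3% with 2 of 6 called lower. DESeq2 kept 0 of the 3 and 1 of the 2, and so did the filter at a mean of 1 CPM. Neural progenitor markers lay on both sides of WT. Of the 10, 4 were below it in both FGR libraries, near the 38.2% of all tested genes, and the median log2 fold change was -0.07. Fabp7, the 1 called lower, gave most of the sum of the 10, with 370.0 and 360.4 CPM in FGR and 483.0 CPM in WT. Markers of mature neurons were at 96% and 92.4% of WT with 0 of 6 called. With edgeR 3 had an unadjusted p under 0.05, against 18.3% of all tested genes.

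Other markers were higher in FGR. Those of young neurons were at 125% and 118% of WT with 3 of 6 called higher, against 1.66% of all tested genes. DESeq2 kept 1 of the 3, and the filter at a mean of 1 CPM kept 0. Tbr1, a young neuron marker that is named here because of its values, lay below WT in both FGR libraries. Those of red cells were at 143% and 158% with 3 of 4 tested called higher, of which DESeq2 kept 2 and gave no adjusted p for 1. Cspg4 stood in 2 of the lists, and no marker that was tested had 0 counts in any library. The part of these cell types in the levels of the cell cycle genes was not tested.

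**Figure D5:**
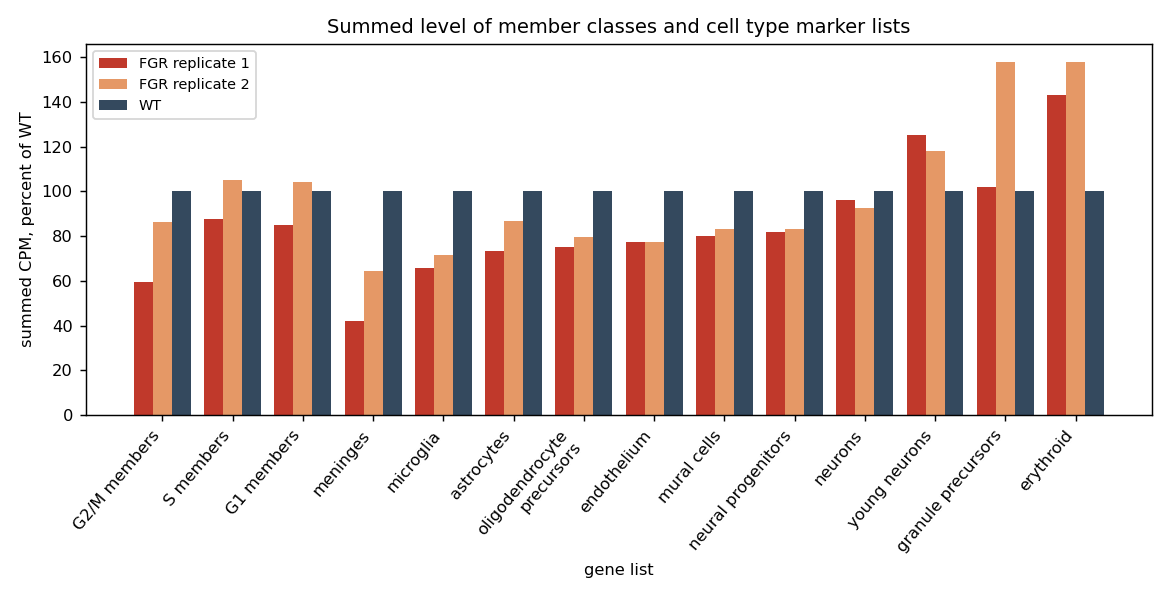
Summed TMM-scaled CPM of the 3 classes of cell cycle genes and of 11 lists of cell type markers, as percent of WT, with bars for FGR replicate 1, FGR replicate 2 and WT. The G2/M genes stand at 59.5% and 86.2% in the FGR libraries and the meningeal markers at 41.9% and 64.6%, and the granule precursor markers are near WT in FGR replicate 1 and at 158% in FGR replicate 2.

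Other measures also separated the FGR libraries. Markers of cerebellar granule cell precursors, which divide after birth next to the midbrain, had a median log2 ratio of FGR replicate 1 to FGR replicate 2 of -0.92 and summed to 102% and 158% of WT. FGR replicate 1 was the lower in 5 of 6 by more than counting error, against 13.8% of all tested genes. In the sixth, Barhl1, a regulator of these precursors, both FGR libraries were nearly equal at 25.5 and 25.6 CPM, against 15.1 CPM in WT, and it was the 1 gene of the list called higher (edgeR adjusted p = 0.00224). Neurod1, a gene of differentiating granule cells, had 3.55 and 10.1 CPM in FGR and 3.12 CPM in WT. Atoh1, which defines these precursors, had 0.103 and 0.897 CPM in FGR and 0.223 CPM in WT, from 6 and 41 counts in FGR and 12 counts in WT. FGR replicate 2 was the high library in both genes, and WT lay nearer to FGR replicate 1. Xist, expressed from the inactive X chromosome, had 591 and 1.71 CPM in FGR and 541 CPM in WT, and the Y-linked gene Ddx3y had 0.0345 and 64.4 CPM in FGR and 0 counts in WT. FGR replicate 1 therefore matched WT in sex-linked transcripts and FGR replicate 2 did not. The part of the granule precursor markers in the gap was not tested, and sex-linked differences and the gap cannot be told apart with 1 FGR library of each pattern.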

How the data were processed

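Midbrain RNA was extracted with Trizol from frozen tissue and sequenced as 2 FGR libraries and 1 WT library made with a TruSeq kit, per the labels' protocols. The submitters' processing notes list HISAT2, an aligner. Its version, the genome build, the counting tool and the use of strand are not given in the sources read for this text. The authors deposited raw read counts and RPKM per gene, and the RPKM equalled count over length and total to within 0.000498%.

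The deposited counts went into edgeR 4.0.16 under R 4.3.3 (filterByExpr at a minimum count of 10, TMM, two-sided quasi-likelihood F test over all 3 libraries, Benjamini-Hochberg adjustment over all tested genes, threshold 0.05). The test was tried on simulated counts beforehand. Alternatives were DESeq2 1.42.0, limma-voom (limma 3.58.1), a robust fit, other scalings and filters, removal of the 5 genes above 1% of counts, and each FGR library left out. Gaps between FGR libraries have exact 95% binomial intervals, which cover counting error only. Exon overlap was read from GENCODE M21 by symbol, and near-identical copies (at least 95% over 200 bases) from BLAST 2.17.0. The 47 genes and all lists were chosen with earlier results of these data known. Genes were named by a rule: those past the threshold and, per class, the 3 smallest p-values, the most abundant per length, the extremes of fold change and the widest gap; the text gives further members by role. Marker genes named by the rule are given as counts where no result turned on them. The midbrain and sex-linked genes were chosen after the data were seen.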

Additional observations from a re-analysis of the deposited data

How the results depend on the processing

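The count of genes called over the whole table was 1087 of 25561 tested, and it was 357 with DESeq2 and 1085 with limma-voom. A robust fit called 1232, DESeq2 size factors 1209 and scaling by library totals 1359. With abundant RNAs removed the count was 1297 of 25543 tested. It was 2057 of 35837 without a low-count filter and 301 of 18670 with a filter at a mean of 1 CPM. Of the 47 cell cycle genes 3 were called, against 0 with DESeq2, 0 with the stricter filter, 7 with scaling by library totals, 7 with abundant RNAs removed and 16 (15 lower, E2f1 higher) without a low-count filter. It was 4 with limma-voom, 4 with DESeq2 size factors and 3 with a robust fit. Why these counts differ was not tested. Class medians of the log2 fold change and of the gap kept their sign under these 8 settings. With each FGR library left out in turn the median ranged from -0.87 to -0.31 (G2/M), from -0.20 to -0.01 (S) and from -0.32 to 0.08 (G1), and 23 to 24 of the 25 G2/M genes lay below WT in the remaining FGR library. Calls cannot be counted there, since 1 library against 1 has no residual degrees of freedom. With the 8 genes left out that share over 10% of their exon bases with another gene, a setting chosen after seeing the data, the median gap of the S class was -0.33 rather than -0.28. For the named genes under alternatives with a test, 333 values kept direction and side of the threshold, 55 lost a call and 9 gained one. With an FGR library left out there was no test, and 5 values moved beyond the FGR spread and, of the 95 others, 5 turned sign (Pcna and Slc1a3 without FGR replicate 1, Cdk6, Map2 and Zic1 without FGR replicate 2). No paired analysis was possible because FGR and WT share only replicate number 1. Depth limits the least abundant genes, such as Cdc6 with 54 and 75 counts in FGR and 103 in WT.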
